A study of Mus musculus with 13 samples.

Results

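The genes Egr1, Egr2, Egr3, Egr4, Nr4a1, Nr4a2, Nr4a3, Ier2, Nab1 and Nab2 form a small circuit of immediate early transcription factors and their corepressors, and their chromatin was examined in LβT2 cells, a mouse gonadotrope line. A peak was counted for a gene where the deposited annotation named that gene as its nearest and placed the peak at most 100 kb from the annotated start. Of 538751 peaks in 12 lists, 108 belonged to the 10 genes. Peaks of one target that shared at least 1 bp were merged over the 4 libraries, which left 39 regions of 186391, made up of 1 SMAD2/3, 21 FOXL2 and 17 H3K27ac regions.

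The cells were stably transduced by lentivirus with a cassette for doxycycline (DOX)-inducible FLAG-mFoxL2 and constitutive GFP, and all of them received DOX for 48 h, so the vehicle samples carried the tagged FOXL2 as well. After 2 h of equilibration they were exposed for 1 h to activin A at 1 nM or to vehicle alone. Activin A is a TGF-beta family ligand whose receptors activate SMAD2 and SMAD3, and FOXL2 is a forkhead factor that acts with SMADs at the FSH beta subunit gene. Chromatin was immunoprecipitated for SMAD2/3, for the FLAG tag (FOXL2, called FOXL2 hereafter, so the untagged protein was not read) and for acetylated lysine 27 of histone H3 (H3K27ac, found at promoters and enhancers in use), with 2 replicates of each treatment and target, each pooled from 3 plates. The line is 1 tumour-derived model, and SMAD2/3 were read with 1 antibody that does not separate the proteins.

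The EGR proteins are zinc-finger activators that bind GC-rich sites, and they are switched on within minutes of a stimulus without new protein synthesis. In gonadotropes EGR1 is the factor through which GnRH raises the LH beta subunit gene, together with NR5A1 and PITX1. NR4A1, NR4A2 and NR4A3 are orphan nuclear receptors induced by the same kinds of stimulus, often through cyclic AMP and CREB at cyclic AMP response elements, while serum response factor acts at CArG boxes of the Egr genes. NAB1 and NAB2 are corepressors that bind EGR proteins and limit their activity, and IER2 is a short-lived nuclear protein of the immediate early response.

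Short matches to known input motifs stood in several promoters of these genes, and a few Nr4a and Egr promoters, chosen for such matches, are shown. RefSeq windows (GRCm38.p6, 250 bases upstream of the RefSeq start) matched 7 of the 10 genes, Egr2, Egr4, Nr4a1, Nr4a2, Nr4a3, Nab1 and Nab2. The RefSeq start of the window used lay 1865 bp from the deposited start for Nab2, 148 bp for Nab1, 74 bp for Nr4a3 and 0 bp for the others. Where a gene had several windows, as Egr2 with 5, the one nearest the deposited start was used. The shares over all windows given below took the first listed window of each gene instead. The 5′ end of the whole RefSeq gene lay 12944 bp from the deposited start at Nr4a1 and 3461 bp at Egr2, so other starts exist there. Below are the whole windows of Nr4a1 (chr15:101266596-101266845, plus strand), Nr4a2 (chr2:57124004-57124253, minus strand) and Egr4 (chr6:85513590-85513839, minus strand), with 30-base stretches of Nr4a3 (chr4:48045085-48045114, plus strand) and Egr2 (chr10:67537790-67537819, plus strand). Capitals mark the half-site of the cyclic AMP response element, TGACG or CGTCA on the opposite strand, and in Egr2 also the CArG box, which comes first.
Nr4a1: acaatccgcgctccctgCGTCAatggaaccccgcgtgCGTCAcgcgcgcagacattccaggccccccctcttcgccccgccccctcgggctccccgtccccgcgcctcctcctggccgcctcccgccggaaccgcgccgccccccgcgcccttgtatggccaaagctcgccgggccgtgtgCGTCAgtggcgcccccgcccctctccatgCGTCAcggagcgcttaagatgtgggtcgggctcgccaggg
Nr4a2: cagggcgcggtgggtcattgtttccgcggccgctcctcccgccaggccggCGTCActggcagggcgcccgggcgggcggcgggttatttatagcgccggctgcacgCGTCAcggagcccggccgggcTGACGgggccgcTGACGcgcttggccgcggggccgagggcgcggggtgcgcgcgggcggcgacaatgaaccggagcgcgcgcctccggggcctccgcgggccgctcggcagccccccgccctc
Nr4a3: cccatgtCGTCAcatTGACGtctcgcattc
Egr4: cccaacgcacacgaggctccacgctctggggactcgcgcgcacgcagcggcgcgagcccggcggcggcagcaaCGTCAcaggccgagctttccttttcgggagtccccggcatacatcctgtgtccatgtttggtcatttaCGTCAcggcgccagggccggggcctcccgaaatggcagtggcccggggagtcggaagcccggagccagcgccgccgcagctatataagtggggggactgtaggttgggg
Egr2: cctcagtCCATATATGGgcagcgaCGTCAc

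Each of Nr4a1, Nr4a2 and Nr4a3 held 4 matches to TGACG in its window, counting both strands. Across all 27025 windows of this length, 17.9% held at least 1 match and 0.152% held 4 or more. Among the 10768 windows within the GC range of the 7 genes (55.2% to 80.8%), those shares were 26.4% and 0.334%. Egr2 and Egr4 held 2 matches each, Nab1 held 1 and Nab2 held 0, so 6 of the 7 genes had at least 1. The half-site was searched after the sequences had been seen, and the full palindrome TGACGTCA, which contains it, was in none of the 7 windows and in 1.62% of all windows.

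The CArG box stood in 1 of the 7 windows, that of Egr2, against 1.4% of all windows. The EGR motif GTGGGCG was found in 1 window, that of Nab1, where it occurred 2 times, against 7.06%. SMAD-type motifs were common throughout: CAGAC was in 3 of the 7 windows against 42.1% of all, and GGCGC in 6 of 7 against 32.1%. No share within the GC range of the 7 genes was taken for the motifs of this paragraph. GGCGC holds only G and C, so 32.1% is not a like comparison for windows this rich in GC. The forkhead motif GTAAACA (3.09% of all windows), the AP-1 motif TGANTCA (6.87%) and the NR4A monomer motif AAAGGTCA (1.31%) had 0 matches in the 7 windows. All motifs were searched on both strands, and a match is a run of letters, not a bound site.

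The SMAD2/3 lists held 605 and 144 peaks after vehicle and 7784 and 5970 after activin (replicates 1 and 2 in each case). The FOXL2 lists held 83834 to 97701 peaks and the H3K27ac lists 38995 to 41763. The read depth of each library cannot be read from peak lists, so list length is the only guide to how much was called. As a check of the cell type, 9 of 10 gonadotrope marker genes (all but Fshb) had an H3K27ac region in all 4 libraries within 100 kb. The share was 61.2% of 15377 protein-coding genes with any peak. Of the 10 markers of other pituitary lineages, 7 of which had any peak, 3 had such a region (Pomc, Ghrhr and S100b). Where a peak of the region also had to be centred within 1 kb of the start, the counts were 2 (Lhb and Nr5a1) and 0. The share of protein-coding genes counted in that way was 40.8%, so by this measure the gonadotrope markers did not stand out.

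Across the 10 genes, SMAD2/3 was called at 1, FOXL2 at 9 and H3K27ac at 7. SMAD2/3 peaks numbered 0 and 0 after vehicle and 1 and 1 after activin, all of them at Nab1. FOXL2 peaks numbered 11 and 13 after vehicle and 14 and 14 after activin, a difference of 2 between means of 12 ± 1.41 and 14 ± 0 (SD, n = 2, exact two-sided permutation p = 0.33). H3K27ac peaks numbered 11 and 13 after vehicle and 16 and 14 after activin, a difference of 3 between 12 ± 1.41 and 15 ± 1.41 (SD, n = 2, exact two-sided permutation p = 0.33). In all 3 targets the activin libraries lay above the vehicle libraries without overlap, but with 2 libraries against 2 the smallest possible p is 0.33, so no such difference can pass 0.05. With lists of equal length the differences for SMAD2/3 and FOXL2 were 0, and with peaks of −log10 q of at least 5 the difference for H3K27ac was -1.0. As a share of each list, the peaks of the 10 genes made up 0.0127% and 0.0155% after vehicle and 0.0143% and 0.0149% after activin in FOXL2, which overlap. For H3K27ac the shares were 0.0267% and 0.0322% after vehicle and 0.0383% and 0.0359% after activin, without overlap. These are counts of called peaks, not of acetylated sequence, and 1 region can be split into several peaks. Egr1 had 3, 6, 6 and 6 H3K27ac peaks in vehicle 1, vehicle 2, activin 1 and activin 2, covering 3590, 2300, 2967 and 2246 bp. Ier2 counted 0, 1, 0 and 1, although its region was called in all 4 libraries. The H3K27ac difference in number is thus not read as a gain of acetylation.

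**Figure D1:**
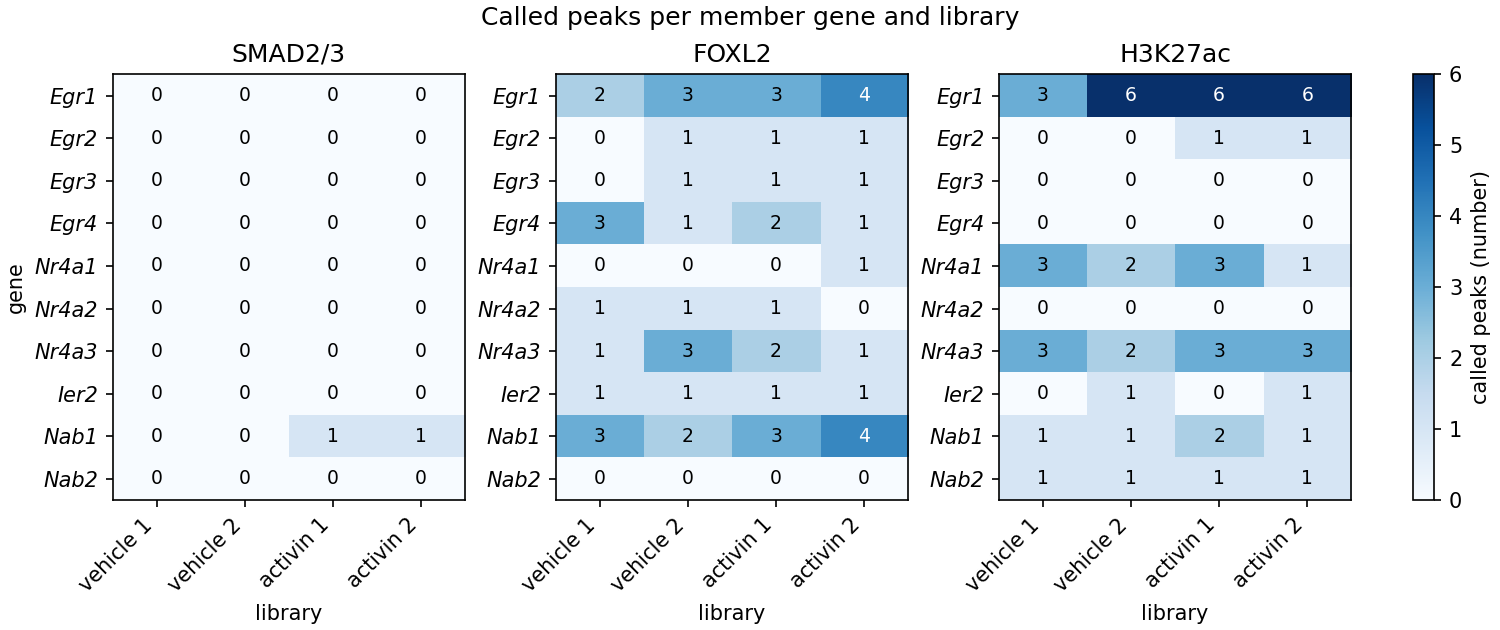
Number of called peaks for each gene (rows) in each library (columns), for SMAD2/3, FOXL2 and H3K27ac. SMAD2/3 is at 0 for all genes but Nab1, which has 1 peak in each activin library, and Egr1 has 6 H3K27ac peaks in every library but vehicle 1, where it has 3, as do Nr4a1 and Nr4a3.

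By nearest gene, FOXL2 was not called for Nab2 in any library, and H3K27ac was not called for Egr3, Egr4 or Nr4a2. Among 15377 protein-coding genes with any peak, 82.6% had a FOXL2 peak and 75.2% an H3K27ac peak in at least 1 library, so 9 of 10 and 7 of 10 lie near the background. A SMAD2/3 region called in both activin libraries was found for 1 of the 10 genes and for 11.2% of protein-coding genes, again near the background.

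Nab1 (ENSMUSG00000002881, start at position 52500300 of chromosome 1, minus strand), the EGR corepressor gene, carried the one SMAD2/3 region of the set. The region (chr1:52483137-52483366, mm10) lies in intron 3 of 8, 17.0 kb into the gene, and was called in both activin libraries and in neither vehicle library, as were 54.1% of all 7521 SMAD2/3 regions within 100 kb of a start (0.0266% had the opposite pattern). Its fold enrichment, the authors' own value for each peak, was 8.06 in activin replicate 1 and 3.99 in activin replicate 2, against list medians of 5.55 and 5.68. Its −log10 q was 21.5 and 3.77, which placed it at 1747 of 7784 peaks and 5561 of 5970. The call was thus well inside the list of replicate 1 and close to the end of the list of replicate 2. Both places lie beyond the lengths of the vehicle lists, and no region remained when all SMAD2/3 lists were shortened to the 144 strongest peaks, so a site gained with activin and a longer list cannot be told apart here.

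At the same place FOXL2 was called in all 4 libraries (chr1:52483005-52483431, 17.1 kb into Nab1). The FOXL2 fold enrichment there was 3.92 and 4.43 after vehicle and 16.9 and 14.2 after activin, which is 4.17 ± 0.361 against 15.5 ± 1.91 (SD, n = 2). The groups did not overlap, and the vehicle values were below their list medians (7.02 and 6.21) while the activin values were above theirs (6.61 and 6.58). On a percentile scale of −log10 q in each list (100 is the strongest peak), it stood at 9.08 and 25.5 after vehicle and at 87.5 and 84.8 after activin, a difference of 68.8 points (exact permutation p = 0.33). With all FOXL2 lists shortened to 83834 peaks the ranks were 6.3, 25.5, 85.5 and 83.0.

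The size of that difference in FOXL2 rank was uncommon. Of 50526 FOXL2 regions called in all 4 libraries within 100 kb of a start, 36 (0.0713%) had a difference at least as large, and the median difference was 0.0772 points. Of the 3112 that overlapped a SMAD2/3 region of both activin libraries, 8 (0.257%) did, with a median of 2.87 points. Ranks end at 100, so regions that stood high after vehicle could not gain as much, yet they are counted in both totals. The comparison was made for this region alone, the 1 of 7 FOXL2 regions in all 4 libraries that ranked higher in both activin libraries. Both shares are thus descriptive and do not measure how rare such a gain is among regions that could show it. The SMAD2/3 and FOXL2 summits at the Nab1 site lay 27 bp apart in activin replicate 1 and 1 bp apart in replicate 2. H3K27ac was not called there in any library, and the nearest H3K27ac region (chr1:52468744-52469152) was 13985 bp away. That region was called in activin replicate 1 only, at a fold of 2.43 and a rank of 0.675, near the end of the list. Among 4509 activin SMAD2/3 regions within 100 kb of a start, 81.3% overlapped FOXL2 and 78.3% overlapped H3K27ac of both activin libraries.

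**Figure D2:**
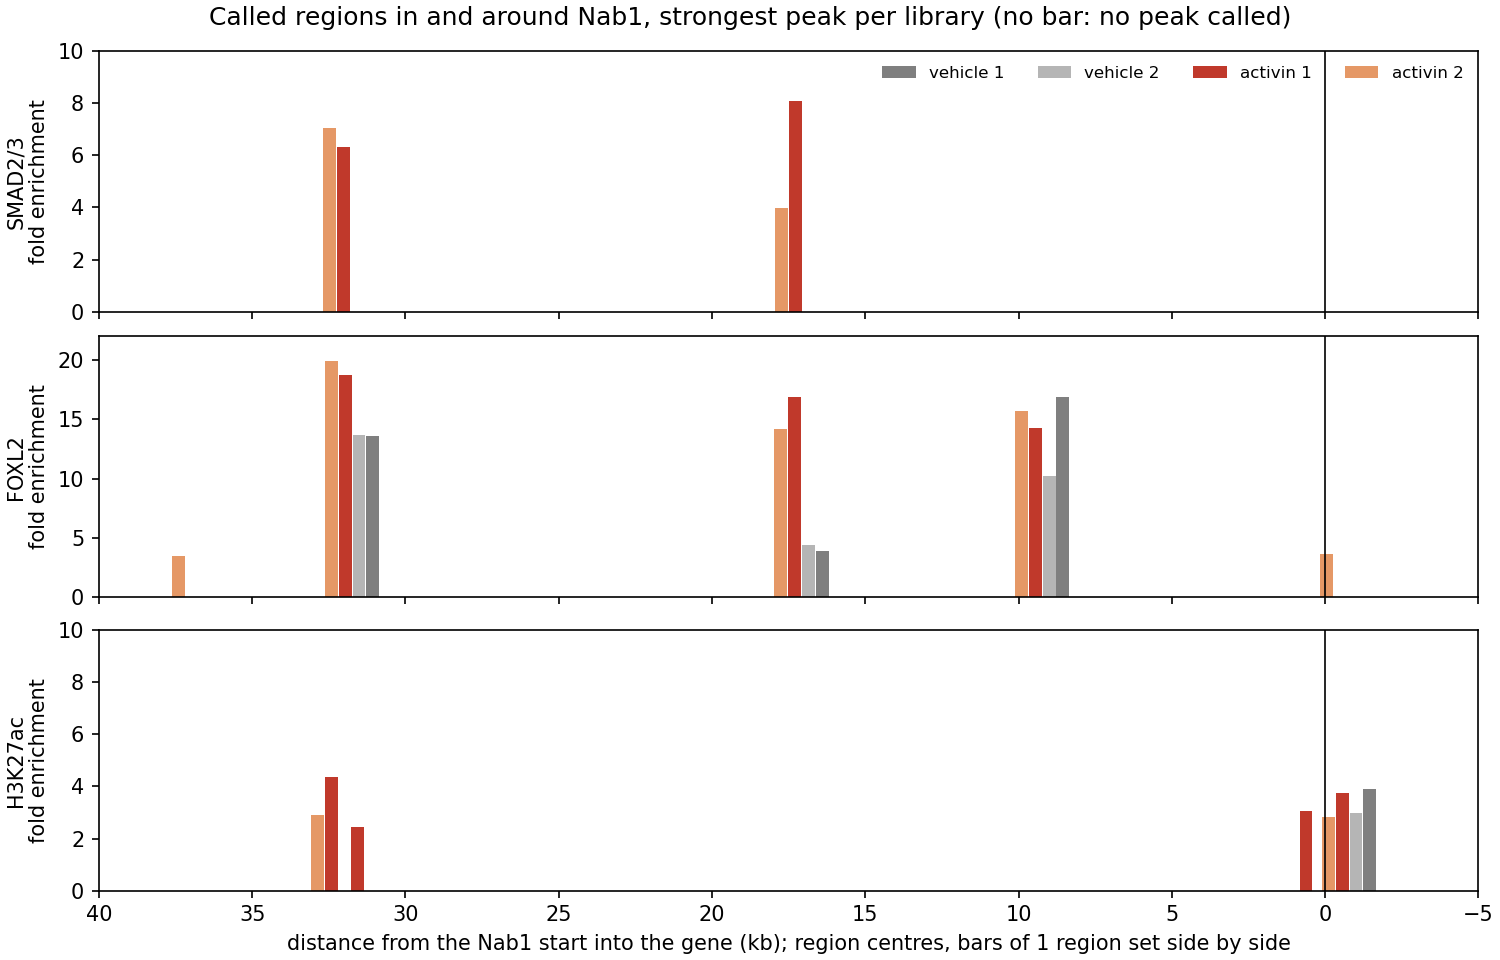
Fold enrichment of called regions in SMAD2/3 (top), FOXL2 (middle) and H3K27ac (bottom) libraries against distance into the Nab1 gene in kb, with the start as a vertical line and the bars of 1 region set side by side. At 17 kb, FOXL2 bars of both activin libraries (16.9 and 14.2) stand above those of both vehicle libraries (3.92 and 4.43), while at 9.23 kb the 4 bars overlap.

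The other regions counted for Nab1 did not separate the treatments. At 9.23 kb into the gene (chr1:52490731-52491414, annotated as a promoter of Nab1) the FOXL2 fold was 16.9 and 10.2 after vehicle and 14.3 and 15.7 after activin, with overlapping groups. A FOXL2 peak 0.733 kb upstream of the start was called in activin replicate 2 only, at 3.67. The promoter H3K27ac region (chr1:52500797-52501368) was called in all 4 libraries at 3.9 and 3.0 after vehicle and 3.76 and 2.82 after activin. There the replicates differed more than the treatments, with replicate 1 higher in both. A short H3K27ac region at 0.398 kb was called in activin replicate 1 only, at 3.06.

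A second SMAD2/3 region lies in the body of Nab1 but was not counted for it, because the annotation names the small gene Gm23460 as nearest. It sits in intron 5 of 8 (chr1:52468377-52468642), 31.8 kb into Nab1, with a fold of 6.31 and 7.05 in the activin libraries and no peak in either vehicle library. FOXL2 over it (chr1:52468238-52468887) was 13.6 and 13.7 after vehicle and 18.7 and 19.9 after activin, without overlap, at ranks of 82.6 and 87.3 against 89.8 and 92.6. Unlike the site in intron 3, this one was already among the stronger FOXL2 peaks after vehicle. An H3K27ac region 78 bp from it (chr1:52467915-52468299) was called in both activin libraries, at 4.38 and 2.9, and in neither vehicle library. Another, on its other side (chr1:52468744-52469152), was called in activin replicate 1 only, at 2.43. SMAD2/3 and FOXL2 summits there were 165 and 179 bp apart.

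Nab2 (ENSMUSG00000025402, start at position 127668568 of chromosome 10, minus strand), the other EGR corepressor gene, had neither SMAD2/3 nor FOXL2 regions by nearest gene. Counted by position, 9 FOXL2 regions lay within 100 kb of its start, 4 of them in all 4 libraries. Among these 4, the region 6.88 kb upstream had folds of 10.8 and 8.88 after vehicle and 6.09 and 5.26 after activin. The region 19.6 kb upstream had 29.0 and 17.8 after vehicle and 28.6 and 26.4 after activin. By rank the former was higher in both vehicle libraries and the latter in both activin libraries. By nearest gene, Nab2 had 1 H3K27ac region (chr10:127666979-127668802) in all 4 libraries, at 6.21 and 5.77 after vehicle and 5.56 and 4.94 after activin. These were the highest H3K27ac folds of the 10 genes in vehicle 1, vehicle 2 and activin 1, above list medians of 3.4 to 3.63, and the vehicle values lay above the activin values without overlap. The ranks of the region were 77.1 and 77.6 after vehicle and 73.6 and 66.3 after activin, a difference of -7.37 points (exact permutation p = 0.33). The annotation places the region in intron 1 of 10 of an overlapping gene, so its signal is not assigned to Nab2 alone.

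Egr1 (ENSMUSG00000038418, start at position 34861207 of chromosome 18, plus strand), the member with the best known role in gonadotropes, had 5 FOXL2 and 6 H3K27ac regions and no SMAD2/3 region. By nearest gene, the strongest FOXL2 region of the 10 genes lay at its 3′ end (chr18:34864674-34865469, 3.86 kb past the start, annotated at the transcription termination site). Its fold was 29.6 and 17.3 after vehicle and 27 and 30.1 after activin, at ranks of 94.5, 87.4, 91.2 and 94.3. The groups overlapped, with vehicle replicate 2 the lowest, so FOXL2 sat there with and without activin. A weaker region 20.8 kb downstream (chr18:34881881-34882182) was also in all 4 libraries, at 4.31, 5.47, 3.9 and 7.3.

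The other 3 FOXL2 regions of Egr1 were called in 1 or 2 libraries. The one nearest the start, 1.94 kb upstream, was called in vehicle replicate 2 at 5.11 and activin replicate 1 at 4.52. Those at 3.2 kb and 29.7 kb were called in activin replicate 2 only, at 5.69 and 5.19. None of them separated the treatments.

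Acetylation at the Egr1 promoter was present before activin. The H3K27ac region 1.49 kb upstream of the start (chr18:34858963-34860470) had folds of 4.42 and 3.65 after vehicle and 4.71 and 3.77 after activin, with replicate 1 above replicate 2 in both treatments. The region nearest the start, at 0.201 kb upstream, was called in activin replicate 2 only, at 5.01. Regions over the last exon and the 3′ end, at 3.54 kb and 4.36 kb, were called in activin replicate 1 only, at 3.19 and 3.27. A distal region 26.3 kb downstream (chr18:34886956-34888151) was in all 4 libraries at 3.92 and 4.29 after vehicle and 3.47 and 4.22 after activin, and one 5.89 kb upstream was in both vehicle libraries (3.3 and 3.53) and in activin replicate 2 (2.83). Egr1 had 3, 6, 6 and 6 H3K27ac peaks in vehicle 1, vehicle 2, activin 1 and activin 2, and these covered 3590, 2300, 2967 and 2246 bp, so the list with the fewest peaks covered the most sequence.

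Egr2 (ENSMUSG00000037868, start at position 67537930 of chromosome 10, plus strand), whose promoter carries the CArG box shown above, was the one gene with H3K27ac in both activin libraries and in neither vehicle library. The region (chr10:67537113-67537749) is centred 0.499 kb upstream of the start, with folds of 3.0 and 3.21 and ranks of 28.6 and 28.8, in the lower part of both lists. Of all 48805 H3K27ac regions within 100 kb of a start, 5.82% had this pattern and 6.31% the opposite one, so 1 and 0 of 17 are near the background. Egr2 was also the one gene with a FOXL2 region of that kind, 82.6 kb upstream (chr10:67455250-67455447), with folds of 4.14 and 4.89 and ranks of 7.11 and 15.3. Neither region of Egr2 was called in both activin libraries at −log10 q of at least 5. Of 107234 FOXL2 regions, 8.72% had this pattern and 3.25% the opposite, against 1 and 0 of 21 here. A FOXL2 peak over the Egr2 promoter, 0.697 kb upstream, was called in vehicle replicate 2 only, at 5.21.

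Egr3 (ENSMUSG00000033730, start at position 70077445 of chromosome 14, plus strand) had 1 region, a FOXL2 region 5.02 kb downstream of the start (chr14:70082309-70082613). It was called in vehicle replicate 2 at 8.71, in activin replicate 1 at 6.55 and in activin replicate 2 at 6.52. The one vehicle value was thus the highest. Egr4 (ENSMUSG00000071341, start at position 85513589 of chromosome 6, minus strand) had 3 FOXL2 regions, all upstream and intergenic. The strongest, 30.7 kb upstream (chr6:85544057-85544440), had folds of 12.5 and 11.1 after vehicle and 8.87 and 14.3 after activin, with the vehicle pair between the activin values. Those at 33.6 kb (vehicle 1 at 5.65, activin 1 at 4.72) and 10.4 kb (vehicle 1 at 3.71) were called in fewer libraries. Counted by position, a stronger region lay 56.2 kb downstream of the Egr4 start (chr6:85456988-85457808), with Cct7 as its nearest gene. Its folds were 54.1 and 53.8 after vehicle and 47.1 and 42.9 after activin, above those of the Egr1 region.

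**Figure D3:**
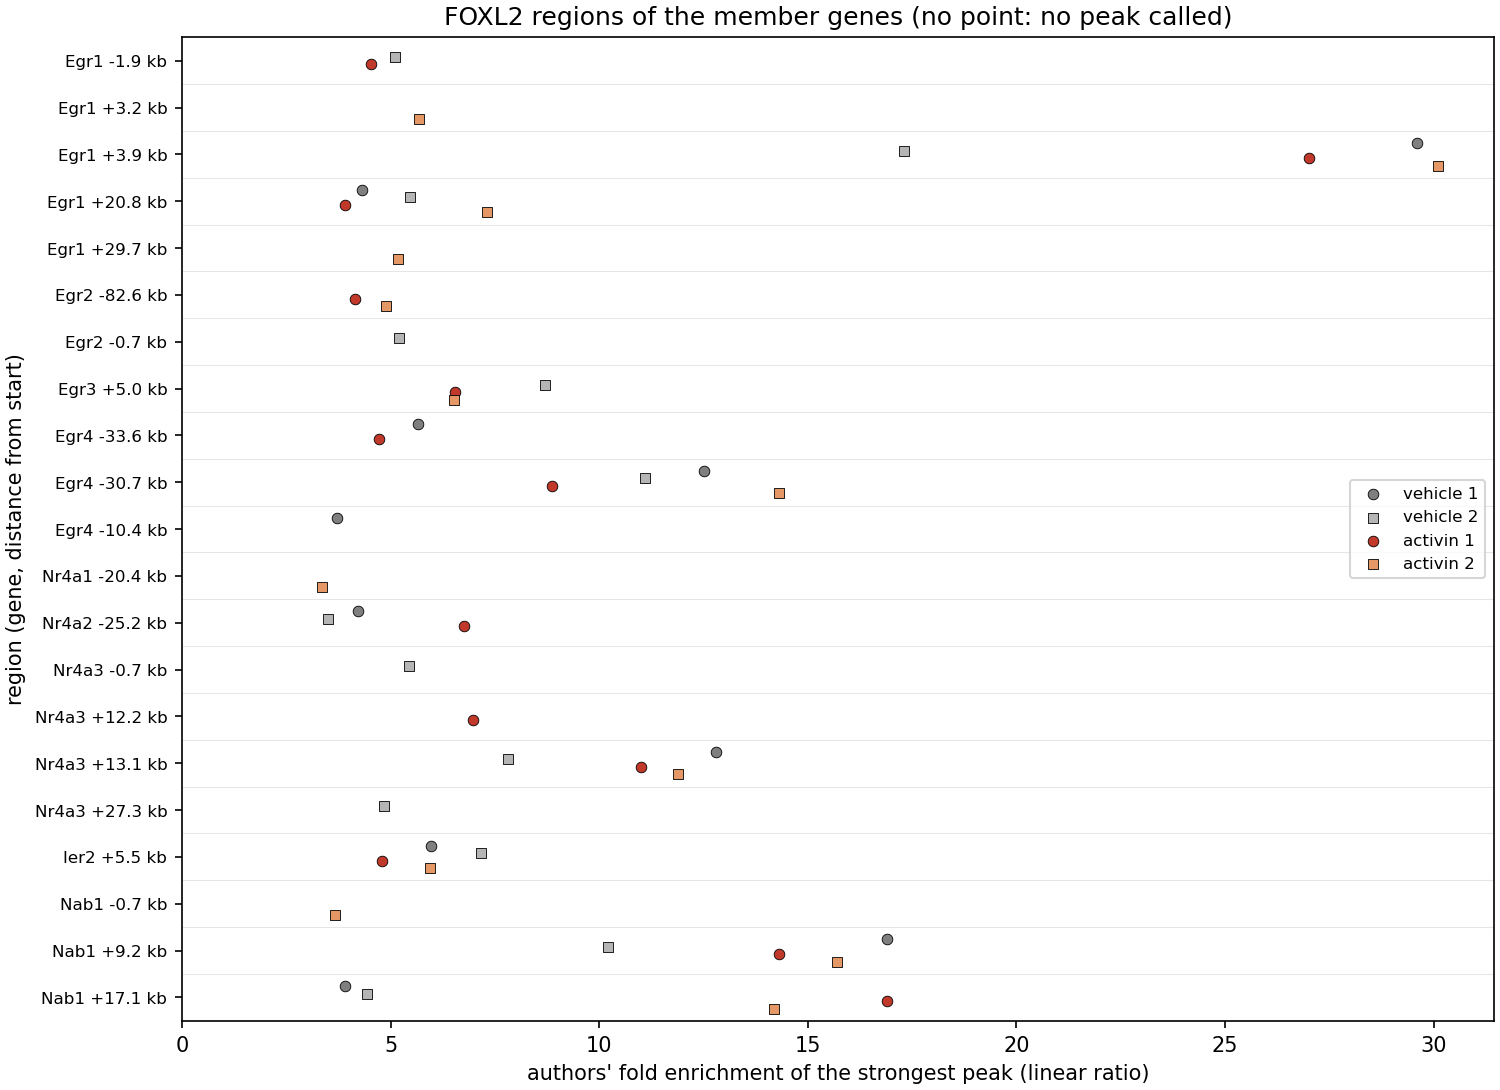
The authors' fold enrichment (linear, x axis) of every FOXL2 region of the 10 genes (rows, with distance from the start), one point per library. The region 17.1 kb into Nab1 has both activin points (16.9 and 14.2) to the right of both vehicle points (3.92 and 4.43), while the strongest region, at 3.9 kb in Egr1, has vehicle and activin points mixed.

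Nr4a1 (ENSMUSG00000023034, start at position 101266846 of chromosome 15, plus strand) encodes the receptor also called NUR77. Counted by nearest gene, its one H3K27ac region in all 4 libraries lay 19.9 kb upstream (chr15:101246625-101247355), with folds of 3.53 and 3.35 after vehicle and 3.49 and 3.66 after activin. These overlapped and differed little between libraries. A neighbouring region 20.8 kb upstream was called in 3 libraries, at 2.8 and 2.99 after vehicle and 2.78 in activin replicate 1. The promoter region (chr15:101266297-101266575, 0.41 kb upstream) was called in replicate 1 of each treatment, at 3.9 and 3.71, and in replicate 2 of neither, a split by replicate and not by treatment. FOXL2 was called for Nr4a1 once, 20.4 kb upstream in activin replicate 2, at 3.36.

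Nr4a2 (ENSMUSG00000026826, start at position 57124003 of chromosome 2, minus strand) encodes NURR1. It had a single FOXL2 region 25.2 kb upstream (chr2:57149118-57149388), at 4.23 and 3.51 after vehicle and 6.75 in activin replicate 1, with no peak in activin replicate 2. No H3K27ac region was called for it, so its promoter, with 4 half-sites in the window printed above, had no called acetylation in any of the 4 libraries.

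Nr4a3 (ENSMUSG00000028341, start at position 48045231 of chromosome 4, plus strand), encoding NOR1, had the most regions of the receptor genes, with 4 FOXL2 and 3 H3K27ac regions. Its strongest FOXL2 region, in intron 5 of 7 at 13.1 kb (chr4:48057999-48058657), had folds of 12.8 and 7.82 after vehicle and 11.0 and 11.9 after activin, overlapping. FOXL2 peaks in 1 library each lay 0.721 kb upstream (vehicle 2, 5.44), at 12.2 kb (activin 1, 6.97) and at 27.3 kb (vehicle 2, 4.84). The H3K27ac region 2.43 kb upstream (chr4:48042401-48043209) had ranks of 51.6 and 42.4 after vehicle and 41.2 and 35.2 after activin, a difference of -8.72 points without overlap (exact permutation p = 0.33). In fold, the same region had 4.37 and 3.64 after vehicle and 3.77 and 3.73 after activin, where the groups did overlap.

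The region nearest the Nr4a3 start, 0.6 kb upstream (chr4:48044491-48044771), was acetylated in all 4 libraries at 3.14 and 4.08 after vehicle and 3.25 and 3.07 after activin. Another, 1.51 kb upstream, was called in vehicle replicate 1 at 3.85 and in both activin libraries at 4.13 and 3.98. The 3 receptor genes thus differed in promoter acetylation, called in all 4 libraries at Nr4a3, in the replicate 1 libraries at Nr4a1 and in none at Nr4a2, while each promoter window held 4 half-sites.

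Ier2 (ENSMUSG00000053560, start at position 84662852 of chromosome 8, minus strand) had 1 FOXL2 and 1 H3K27ac region, both in all 4 libraries. FOXL2, 5.46 kb downstream of the start (chr8:84657217-84657578), had folds of 5.97 and 7.17 after vehicle and 4.79 and 5.94 after activin, where vehicle 1 and activin 2 nearly coincide and the ranks overlapped. The H3K27ac region over the promoter (chr8:84662536-84665763) was the widest of the 17 at 3228 bp, with folds of 4.35, 4.03, 4.03 and 4.81 in vehicle 1, vehicle 2, activin 1 and activin 2. In part of the libraries its peaks were annotated to another gene.

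An H3K27ac region called in all 4 libraries that held, in at least 1 library, a peak centred within 1 kb of the start was found at 5 of the 10 genes, namely Egr1, Nr4a3, Ier2, Nab1 and Nab2, against 40.8% of protein-coding genes counted in the same way. At Egr1 and Ier2 the whole region was centred farther out, 1.49 kb and 1.3 kb upstream, and not all of its peaks lay within 1 kb.

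**Figure D4:**
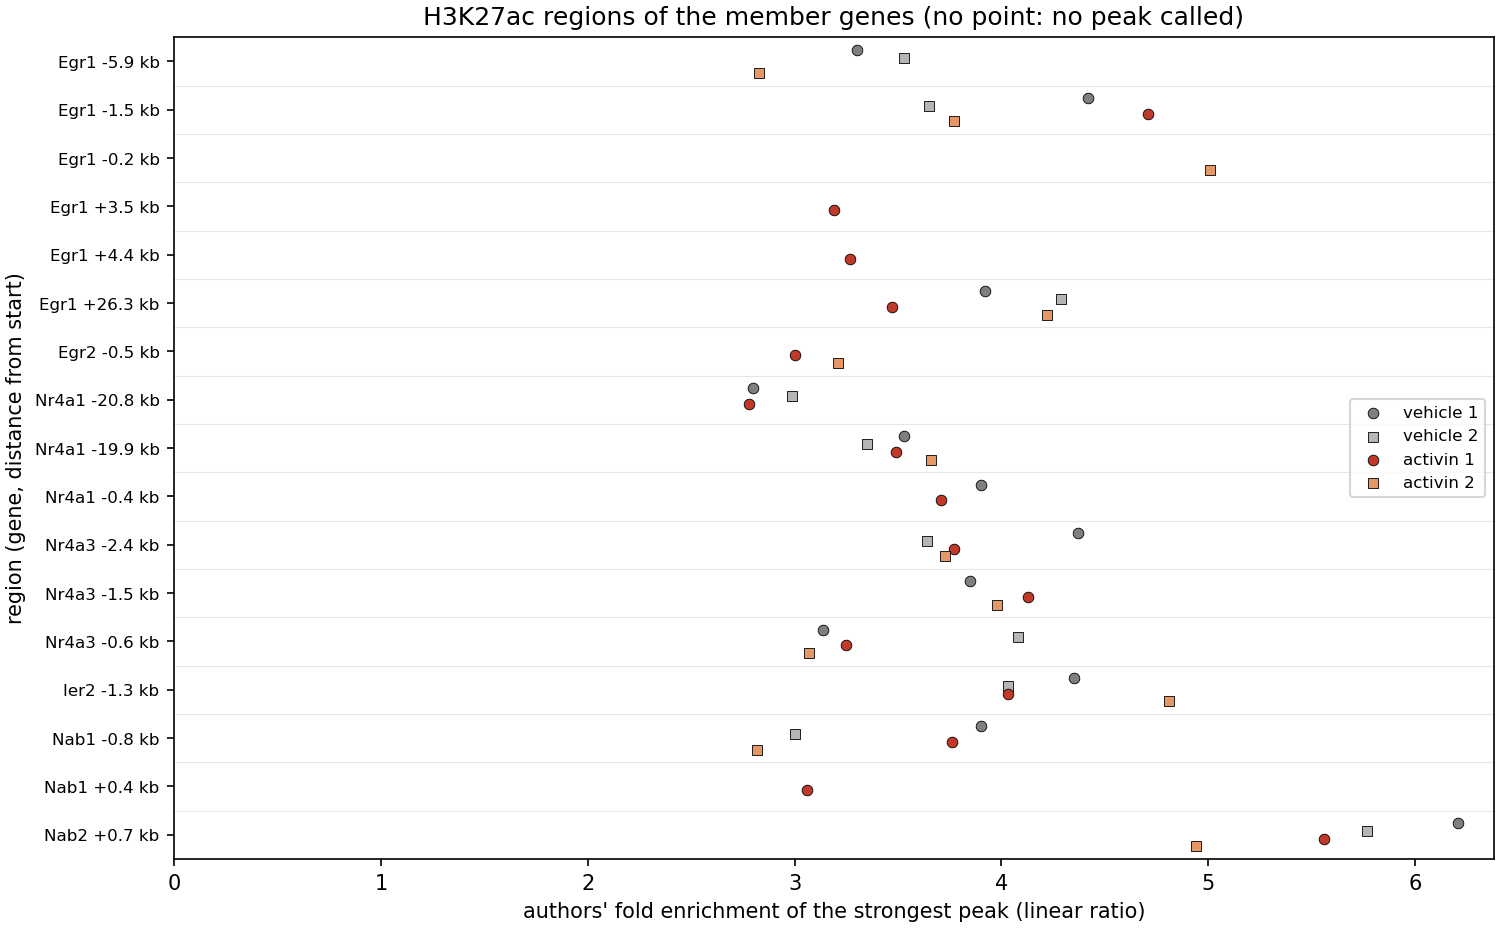
The authors' fold enrichment (linear, x axis) of every H3K27ac region of the 10 genes (rows, with distance from the start), one point per library. Nab2 points lie between 4.94 and 6.21, with both vehicle points to the right of both activin points, and the Egr2 row has activin points only (3.0 and 3.21).

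Among regions called in all 4 libraries, ranks seldom separated the treatments. Of the 21 FOXL2 regions 7 were in all 4 libraries and of the 17 H3K27ac regions 8 were, against 47.1% of such regions within 100 kb of any start in either target. Among the 7 FOXL2 regions 1 ranked higher in both activin libraries, the Nab1 site in intron 3, and 0 ranked higher in both vehicle libraries, against 29.7% and 28.2% of 50526. Among the 8 H3K27ac regions 0 ranked higher in both activin libraries and 2 in both vehicle libraries, those at Nab2 and Nr4a3, against 26.5% and 30.5% of 22999. These shares are near the background or below it, with few regions behind them.

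Counting by nearest gene can miss sites assigned to a neighbour, so all regions centred within 100 kb of each start were also listed. SMAD2/3 then had 6 regions at 3 of the genes, 2 of them called in both activin libraries and in neither vehicle library, both inside Nab1. A SMAD2/3 region of both activin libraries within 100 kb was thus found for 1 of the 10 genes and for 37.8% of 14537 protein-coding genes. At Nr4a1 the 3 SMAD2/3 peaks were each in a single activin library, 56.7 kb, 29.8 kb and 29.6 kb upstream, at 3.49, 3.56 and 3.73. The last 2 of these, from activin replicates 1 and 2, are 49 bp apart (chr15:101236896-101237099 and chr15:101237149-101237397). With peaks up to 500 bp apart merged, an alternative chosen after seeing the data, they form 1 region of both activin libraries and of neither vehicle library, and 2 of the 10 genes have such a region, against 37.9% of genes. Both peaks lie inside an H3K27ac region (chr15:101234615-101238116) with ranks of 24.0 and 43.2 after vehicle and 54.6 and 55.9 after activin. At Nr4a2 the one peak, 58.3 kb upstream, was in vehicle replicate 1, at 3.36.

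FOXL2 had 106 regions in these windows, of which 21 had one of the 10 genes as the nearest, and H3K27ac had 71. By gene, FOXL2 regions ran from 29 at Egr1, 18 at Nab1 and 15 at Nr4a1 down to 4 at Egr3 and 3 at Egr2. H3K27ac regions ran from 20 at Nr4a1 and 18 at Egr1 down to 2 at Egr3 and 1 at Nr4a2. Of the 106 FOXL2 regions 48 were in all 4 libraries, 7 in both activin libraries and neither vehicle library, and 5 the reverse, near the 47.1%, 8.72% and 3.25% of all FOXL2 regions within 100 kb of a start. Nab1 held 3 of those 7. Of the 48, 13 ranked higher in both activin libraries and 12 in both vehicle libraries, against 29.7% and 28.2% of all such FOXL2 regions. Of the 37 H3K27ac regions in all 4 libraries, 5 and 13 did, against 26.5% and 30.5%. Nr4a1 held 4 of those 5 and 2 of those 13. Of the 71 H3K27ac regions, 3 were in both activin libraries alone, at the Egr2 promoter, in intron 5 of Nab1 and 53.8 kb downstream of the Nr4a1 start (chr15:101319345-101322005, 4.28 and 4.04). The one H3K27ac region with the reverse pattern lay 22.5 kb from Egr3, at the promoter of its neighbour Bin3, and the shares over all H3K27ac regions were 5.82% and 6.31%.

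**Figure D5:**
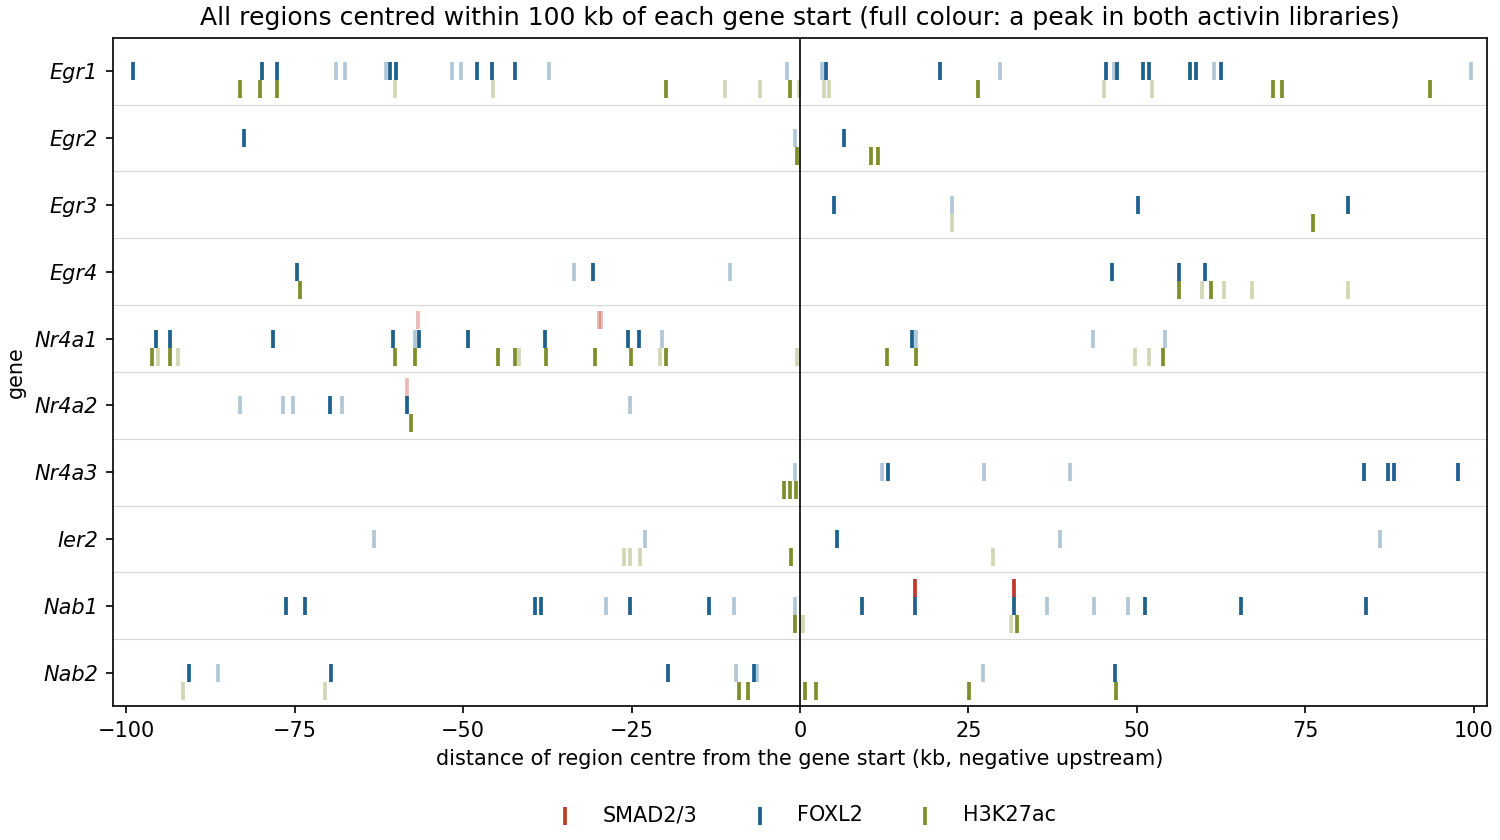
Positions of all SMAD2/3, FOXL2 and H3K27ac regions within 100 kb of each gene start (x axis, kb from the start, negative upstream), in full colour where called in both activin libraries and pale otherwise. Full-colour SMAD2/3 marks, 2 of the 6 SMAD2/3 regions, stand in the Nab1 row, and the adjoining pale pair at Nr4a1 (29.8 kb and 29.6 kb upstream) holds 1 peak of each activin library.

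The genes whose products act with or before the EGR and NR4A proteins were read from fixed lists. Shares of all genes are over protein-coding genes with any peak, which 41 of 45 other immediate early genes, 10 of 10 upstream factors and 9 of 10 partners and targets had. Of the 45, 8 had a SMAD2/3 region of both activin libraries, against 11.2% of all protein-coding genes. They were Fos, Dusp1, Dusp2, Btg2, Zfp36, Nfkbia, Trib1 and Plk3, and at all but Trib1 a region was called in both activin libraries and in neither vehicle library, which makes 7 of 45 against 10.4% of all genes. At Fos, which encodes an AP-1 subunit, the region 12.2 kb upstream had folds of 11.7 and 10.1. A 4-library H3K27ac region with a peak centred within 1 kb in at least 1 library was found at 27 of the 45, against 5 of the 10 genes here and 40.8% of all.

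Of 10 factors that switch immediate early genes on, 2 had such a SMAD2/3 region, Creb1 and Crebbp, which encode CREB and its coactivator CBP. Among 10 partners and targets of EGR1 and the NR4A receptors, 6 did, namely Nr5a1, Pitx1, Lhb, Gnrhr, Cga and Rxra. Lhb, the LH beta subunit gene and a target of EGR1, had it 0.057 kb past the start, at 3.14 and 3.96. Gnrhr, the GnRH receptor gene, had it 0.202 kb upstream, at 10.6 and 9.46, and Rxra, whose product pairs with NR4A1 and NR4A2, had its strongest 22.8 kb upstream, at 16.7 and 19.9, with a peak in vehicle replicate 1 as well (6.89). FOXL2 was called in all 4 libraries at 4 of these 10, at 20 of the 45 other immediate early genes and at 5 of the 10 genes here, against 55.6% of all genes.

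FOXL2 regions of both activin libraries alone were found at 1 of the 10 genes, at 5 of the 45 other immediate early genes (Dusp4, Klf6, Klf10, Btg1 and Rgs2) and at 5 of the 10 upstream factors (Elk4, Mkl2, Creb1, Atf1 and Crebbp), against 21.6% of all genes. Among the 10 partners and targets they were found at 3 (Pitx1, Rxra and Rxrg). The reverse pattern was found at 0, 5, 1 and 2 of these lists, in the same order, against 10.3%. For H3K27ac the counts with activin alone were 1, 4 (Fos, Klf2, Zfp36 and Arc), 2 (Mkl1 and Crebbp) and 2 (Pitx1 and Rxra), against 8.15%, and with vehicle alone 0, 2, 1 and 0, against 8.47%.

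The genes with a pattern of best peak rank most like that of Nab1 over the 12 libraries were Sipa1l1, Prl3c1 and Alg13. Their Euclidean distances were 46.6, 49.4 and 50.4 rank points, and the median over 15376 genes was 156. Their best FOXL2 ranks were 81.2 to 93.3 over the 4 libraries. For Nab1 they were 81 and 68.8 after vehicle, from the region at 9.23 kb, and 87.5 and 84.8 after activin, from the site in intron 3.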

How the data were processed

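Peaks from 12 mouse ChIP-seq libraries were used, and the Protein-A control sample was not analysed here. Alignment with Bowtie2 to GRCm38 (mm10), peak calling with MACS2 and annotation with HOMER are named in the submitters' processing notes, and versions, settings and the control are not given in the sources used here. The deposited narrow and broad lists, called per sample, hold a score, a fold enrichment (a linear ratio) and −log10 p and q for each peak. The lowest −log10 q of a list was 1.3 to 1.78 (SMAD2/3), 1.3 to 1.33 (FOXL2) or 1.0 to 1.01 (H3K27ac). The deposited annotation gave the nearest gene and distance. Read depth is unknown, so no background outside peaks could be given.

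Python 3.11.15, numpy 2.4.6 and pandas 2.3.3 were used. A region with several peaks in a library took the strongest. Since nothing says that duplicates came from separate cultures beyond the pooling of plates, p-values measure only the spread between these samples, which may be technical. The 10 genes and all lists were chosen with earlier results of these data known, and the TGACG motif after the promoter sequences were seen. All regions of the 10 genes are described. The genes most like Nab1 are the 3 nearest by distance over 12 best ranks, with 0 where no peak was called. Alternatives tried were the distance limit, the nearest-gene rule, a stricter q, equal list lengths, merging, ranking by fold, leaving out libraries and a replicate block. Scripts were tested on simulated peak lists.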

Additional observations from a re-analysis of the deposited data

How the results depend on the processing

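Of the differences in peak number, that for SMAD2/3 became 0 and that for FOXL2 became 0 with lists of equal length, and that for H3K27ac turned to -1.0 with −log10 q of at least 5 (exact permutation p = 1.0). Counting every peak within 100 kb of a start, whatever its nearest gene, gave 2 SMAD2/3, 7 FOXL2 and 3 H3K27ac regions called with activin alone. It gave 5 FOXL2 and 1 H3K27ac called with vehicle alone. Of 48 FOXL2 and 37 H3K27ac regions in all 4 libraries, 13 and 5 ranked higher in both activin libraries and 12 and 13 in both vehicle libraries. The shares over all such regions were 29.7% and 28.2% for FOXL2 and 26.5% and 30.5% for H3K27ac, with activin first. With peaks up to 500 bp apart merged as well, chosen after seeing the data, SMAD2/3 had 3 regions called with activin alone. Regions called with activin alone were 0 for SMAD2/3, FOXL2 and H3K27ac with −log10 q of at least 5 in all lists, and 0 for each where presence alone needed that value. With lists of equal length they were 0 for SMAD2/3 and 0 for FOXL2, and with a limit of 50 kb they were 0 for FOXL2. The FOXL2 regions of all 4 libraries ranking higher with activin were 0 at −log10 q of at least 5, which leaves out the Nab1 site of intron 3 because its vehicle 1 peak was at 4.64. For H3K27ac that count became 1 with peaks merged up to 500 bp apart and 1 with ranks by fold. Where no cause is named, the cause was not tested.

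Leaving out each library in turn gave 1 to 5 FOXL2 regions called with activin alone (5 without activin 1), 0 to 3 called with vehicle alone (3 without vehicle 1) and 2 to 5 ranking higher with activin (5 without activin 1). Each such run asked for presence or absence in fewer libraries, so its rules were looser than those of the main counts. A higher count is therefore no sign that the library left out was at fault. For H3K27ac the ranges were 1 to 4 (4 without activin 2), 0 to 1 and 0 to 2. For SMAD2/3 the count with activin alone was 1 in each such run, the difference in peak number 1, and the differences in peak number ran from 1 to 3 for FOXL2 and 2 to 4 for H3K27ac.

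With the replicate number as a block, the differences were 1 for SMAD2/3, 2 for FOXL2 and 3 for H3K27ac (exact sign-flip permutation p = 0.5, the smallest that 2 pairs allow), so no call changed. The deviations of same-numbered libraries correlated at 0.132 in FOXL2 and -0.0281 in H3K27ac. Of all recomputed values, 77 were labelled the same, 40 moved and 1 reversed. The label does not mean that the size was kept, and many of the 77 are counts that stayed at 0. With every peak within 100 kb, the difference in peak number went from 1.0 to 3.0 for SMAD2/3 and from 2.0 to 5.0 for FOXL2. With a limit of 50 kb that for FOXL2 went from 2.0 to 1.0, and all 3 were labelled the same. The shares of SMAD2/3 regions overlapping FOXL2 and H3K27ac had no value with −log10 q of at least 5 or with lists of equal length, since no SMAD2/3 region of both activin libraries was left.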
